A study of Mus musculus with 28 samples.

Results

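The TRIM genes are a family made up mainly of ubiquitin ligases. They were taken as every row of the deposited expression table whose symbol was Trim followed by a number and, at most, 1 letter, which gave 68 of 40021 genes listed. The data were mRNA-Seq values of tdTomato-high microglia sorted from 28 single retinas of male Cx3cr1CreER:R26-tdTomato (C57BL/6) heterozygotes. In this strain a tamoxifen-dependent Cre, driven by the fractalkine receptor gene Cx3cr1, switches on a red reporter. Cells that express Cx3cr1 while tamoxifen is present are tagged for good, along with their progeny, and the study describes some tagging without tamoxifen as well. All 4 groups carried the same alleles and received topical tamoxifen over 3 days at 4 to 5 weeks of age. The naive group had 10 retinas. The other groups, with 6, 5 and 7 retinas, were taken 4 h, 18 h or 2 weeks after an intravitreal injection of 10 ng lipopolysaccharide (LPS), which was given 4 weeks after tamoxifen and produces endotoxin-induced uveitis (EIU), an acute inflammation of the eye that resolves. The retinas were left and right eyes from 2 experiments. In that order of groups, 6, 3, 4 and 4 retinas belonged to experiment 1, and 4, 3, 1 and 3 to experiment 2. The labels do not tie retinas to animals, so both eyes of a mouse may be among the replicates and the p-values measure the spread between retinas.

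Most TRIM proteins, though not Trim44, have a RING domain that passes ubiquitin to a target, with B-box zinc fingers and a coiled coil. In most members a domain that picks the target follows. Many are known as interferon-inducible antiviral factors or as regulators of the receptors that sense viral RNA, DNA and LPS. Others act far from immunity, as chromatin co-repressors, as neuronal or cytoskeletal ligases, or in muscle, germ cells and erythroid precursors. The members were therefore grouped by role into 12 antiviral genes that all lie on chromosome 7, 22 regulators of innate signalling, 4 nuclear proteins, 8 neuronal or cytoskeletal ligases, 5 muscle genes, 11 germline or erythroid genes and 6 genes in no list.

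Values are in RPKM, reads corrected for the length of the transcript and for the number of mapped reads. The retinas had between 7510000 and 19700000 alignments and between 6552 and 11825 genes at 1 RPKM or more. Naive retinas of experiment 1 had a median of 8350 such genes and those of experiment 2 a median of 11320. Of the 10 microglial markers examined, including Cx3cr1, Aif1, P2ry12 and Tmem119, all reached 1 RPKM in 28 of 28 retinas, but all 6 rod markers, such as Gnat1 and Pde6b, did so too. The summed rod marker level ranged from 532 to 3984 RPKM and the summed microglial marker level from 2274 to 15400 RPKM.

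Of the 68 TRIM genes, 34 reached 1 RPKM in at least 5 retinas and were tested, as were 13164 genes (32.9%) of the whole table. A further 9 reached 1 RPKM in 1 to 4 retinas, 22 stayed under 1 RPKM in all 28 retinas with a value above 0 in some, and 3 were listed at 0 throughout. Together these 25 made up 36.8% of the family, and 53.2% of all genes stayed under 1 RPKM. Only 5 members had 1 RPKM or more in every retina: Trim8, Trim23, Trim26, Trim30a and Trim30d. The passing members came from the antiviral genes (10 of 12), the innate regulators (15 of 22), the nuclear proteins (3 of 4), the neuronal or cytoskeletal ligases (4 of 8) and the genes in no list (2 of 6). None of the 5 muscle genes and none of the 11 germline or erythroid genes passed. Of the tested members, Trim24 would not have passed without the naive group, and Trim65 would not have passed without the naive or without the 18 h group.

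The members that were not expressed included most genes with roles in muscle, germ cells or erythroid cells, and some from other lists. Trim10, an erythroid gene, Trim29, an epithelial gene, and Trim31, a ligase known from the gut epithelium, were the 3 listed at 0 in 28 of 28 retinas. The muscle ring-finger genes Trim54 and Trim63 peaked at 0.174 and 0.0413 RPKM, and Trim72, a membrane repair gene of muscle, at 0.278 RPKM. The 2 other muscle genes, Trim7 and Trim55, each passed 1 RPKM in 1 retina, with highest values of 1.53 and 1.45 RPKM. Among the germline and erythroid genes, Trim17 and Trim58 reached 1 RPKM in 3 and 2 retinas, and the other 9 stayed below it. Trim71, a stem cell gene that is a target of let-7, peaked at 0.0325 RPKM. Trim38, an innate regulator, reached no more than 0.615 RPKM and had a median of 0 over all retinas. Within the antiviral group, Trim34b stayed at or under 0.602 RPKM, whereas its near copy Trim34a was among the most abundant members. The deposited values come from an estimate that can divide reads between similar transcripts, so that a listed 0 is not a proof of absence.

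**Figure D1:**
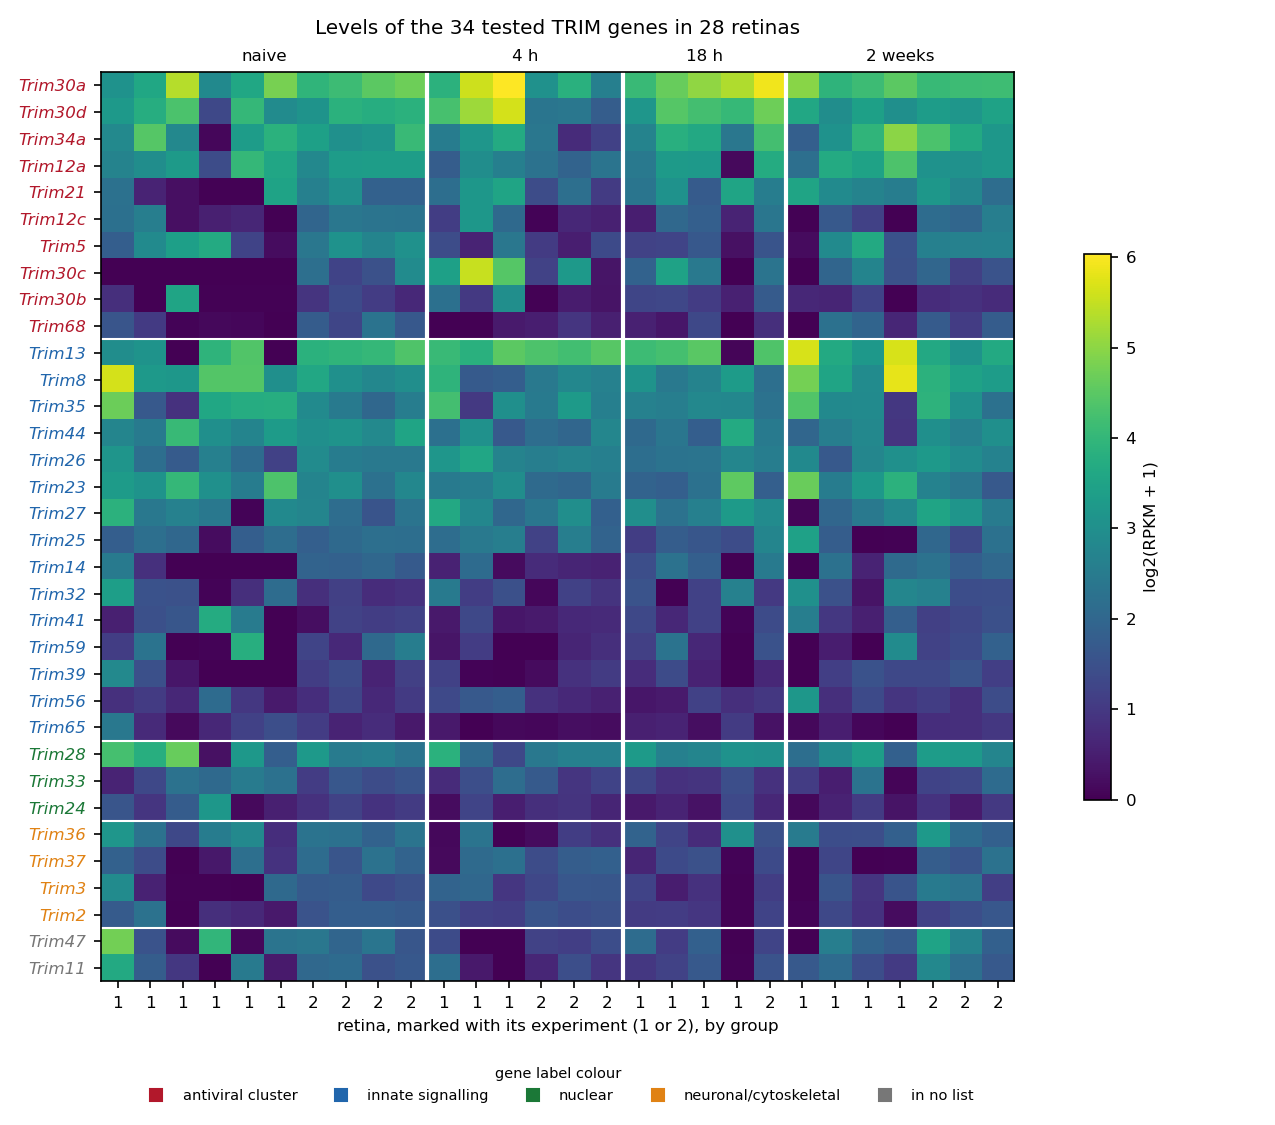
Level of each of the 34 tested TRIM genes (rows, coloured by role) in each of the 28 retinas (columns, marked 1 or 2 for the experiment and grouped by time), as log2(RPKM + 1). Trim30a has 1 RPKM or more in every retina, and Trim30c is at 0 in the 6 naive retinas of experiment 1 and reaches 45.3 RPKM at 4 h.

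In naive retinas the most abundant members were antiviral genes and innate regulators. Over the 10 naive retinas, 28 members had a median of 1 RPKM or more and 11 a median of 5 RPKM or more. Trim30a, a known inhibitor of LPS-induced NF-kappa B signalling, had the highest naive median, 15.5 RPKM (range 6.34 to 40.1). Trim13, a ligase of the endoplasmic reticulum, followed with 13.8 RPKM (0 to 20.1), and Trim30d, a neighbour of Trim30a, with 12.5 RPKM (1.46 to 19.1). Trim12a, a mouse relative of the retroviral restriction factor TRIM5, had a naive median of 8.96 RPKM (1.65 to 15.1). Trim34a, from the same group, had 8.52 RPKM (0.0740 to 20.8), and Trim8, a regulator of TNF and cytokine signalling, had 8.36 RPKM (5.93 to 48.9). The ranges of these 6 genes overlapped throughout. All were measured in the same retinas, and their order within retinas was not tested.

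Promoter sequences are shown for the antiviral genes because 7 of the 12 carry the core of the interferon-stimulated response element (ISRE), to which interferon-activated factors bind. In the 300 bases around each RefSeq start site (GRCm38.p6, 250 before and 50 after), the letters GAAA, any 2 bases and GAAA on either strand were found in 3.44% of all promoters, in 3.24% of the promoters of genes tested and in 28.57% of the promoters of tested TRIM genes (10 of 35 promoters, 9 genes). The search covered the 53 TRIM genes that had a promoter in the table, 26 of them tested. Each line gives 30 bases, 5′ to 3′ on the gene's strand, with the match in capitals. The first was at chr7:104465210-104465239 for Trim30a, chr7:104507871-104507900 for Trim30d, chr7:104244457-104244486 for Trim34a and chr7:102565450-102565479 for Trim21. The others were at chr7:104315466-104315495 for Trim12a, chr7:104353359-104353388 for Trim12c and chr7:104288136-104288165 for Trim5.
Trim30a: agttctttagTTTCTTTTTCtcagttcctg
Trim30d: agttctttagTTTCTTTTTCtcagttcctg
Trim34a: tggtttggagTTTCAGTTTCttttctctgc
Trim21: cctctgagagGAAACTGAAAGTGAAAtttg
Trim12a: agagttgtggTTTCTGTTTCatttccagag
Trim12c: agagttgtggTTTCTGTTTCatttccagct
Trim5: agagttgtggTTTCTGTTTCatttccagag

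The Trim30a and Trim30d windows were identical, as were those of Trim12a and Trim5, and the Trim21 window holds 2 overlapping matches. Trim30c had no such match, nor did Trim30b, Trim68, Trim6 and Trim34b. Its promoter held instead the letters TTCNNNGAA, the core of the gamma-activated site bound by STAT dimers, at chr7:104400821-104400850 on the minus strand, a motif found in 8.3% of all promoters and in no other tested TRIM gene.
Trim30c: cgtgactaaaTTCTTAGAAgcttagtgact

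The letters GGG, any 2 bases and TTTCC on either strand, a core of the NF-kappa B site, were in 0 TRIM promoters and in 1.63% of all promoters. All of these matches are descriptions of letters and not of binding.

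At 4 h, TRIM genes changed at a share near that of all genes in the fit of both experiments. Differences were tested on log2(RPKM + 1) by limma with Benjamini-Hochberg adjustment, and a gene was called when its adjusted p was at most 0.05 and its change at least 2-fold on that scale, which understates the change of low genes. Of the 34 tested members, 1 rose and 1 fell, against 8.08% of all genes tested that were called, 3.68% higher and 4.39% lower. The median change of the members was -0.29 on the log2 scale and that of all genes -0.11. An unadjusted p under 0.05 was found for 7 of 34 members and 20.5% of all genes. In bulk samples fewer expressing cells and less RNA per cell cannot be told apart, and this holds for each result below.

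Trim30c was the member that rose. It lies at chr7:104382065-104400837 on the minus strand of GRCm38, between Trim30b and Trim30a. Its level was 9.77, 45.3 and 20.8 RPKM in the 4 h retinas of experiment 1 and 1.27, 8.51 and 0.262 RPKM in those of experiment 2. Naive retinas had 0 RPKM in all 6 of experiment 1 and 3.62, 1.34, 1.83 and 6.57 RPKM in experiment 2. All 6 retinas at 4 h lay above the naive median of 0, which was set by the zeros of experiment 1, and 4 lay above the highest naive retina. Within experiment 1 all 3 retinas at 4 h lay above every naive retina. Within experiment 2, 1 lay above every naive retina and 2 (1.27 and 0.262 RPKM) lay below every naive retina. The difference was 2.24 ± 0.63 (SE) on the log2(RPKM + 1) scale, with an adjusted p of 0.0192 by limma. Without the second or the third 4 h retina the adjusted p was 0.0884 and 0.0696, and with experiment 2 alone the difference was -0.37. At 18 h Trim30c had 0, 2.72, 3.97, 4.40 and 10.2 RPKM, a difference from naive of 1.24 ± 0.67 that was not called (adjusted p = 0.346 by limma). At 2 weeks it ranged from 0 to 5.59 RPKM with a median of 1.93.

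Trim36 was the member that fell. It encodes a ligase that binds microtubules and lies at chr18:46165300-46212607 on the minus strand. Its 4 h values were 0.0942, 3.97 and 0.0184 RPKM in experiment 1 and 0.125, 1.12 and 0.787 RPKM in experiment 2, against a naive range of 0.741 to 8.01 RPKM with a median of 3.90. Of the 6 values, 3 (0.0942, 0.0184 and 0.125) lay below every naive retina, and 5 of 6 below the naive median. The change was -1.41 ± 0.40 (adjusted p = 0.0209 by limma), and its size was alike in both experiments, -1.33 in experiment 1 and -1.49 in experiment 2. Leaving out the first, the third or the fourth 4 h retina ended the call, with adjusted p of 0.0700, 0.0698 and 0.0610 by limma. At 18 h the 5 values ran from 0.682 to 7.18 RPKM and at 2 weeks the 7 values from 1.69 to 8.45 RPKM, overlapping naive retinas at both times. The difference was -0.48 at 18 h and -0.11 at 2 weeks, neither of them called.

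The 6 genes with the highest naive level were not called at 4 h. Trim13 had 13.1 to 22.0 RPKM at 4 h with a median of 18.5, a difference of 1.19 ± 0.67 (adjusted p = 0.332 by limma), and 5 of 6 retinas were above the naive median. Trim8 had 2.28 to 14.1 RPKM with a median of 4.85, and 4 of 6 retinas lay below every naive retina. Its difference was -1.08 ± 0.44, with an adjusted p of 0.143 by limma. Trim12a had 2.46 to 6.78 RPKM, below the naive median in all 6 retinas, and differed by -0.77 ± 0.43 (adjusted p = 0.322 by limma). Trim30a, Trim30d and Trim34a differed by 0.10, 0.19 and -0.84, with values that split by experiment. For Trim30a and Trim30d the sign turned to -0.16 and -0.05 when retinas were rescaled to the same summed RPKM.

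**Figure D2:**
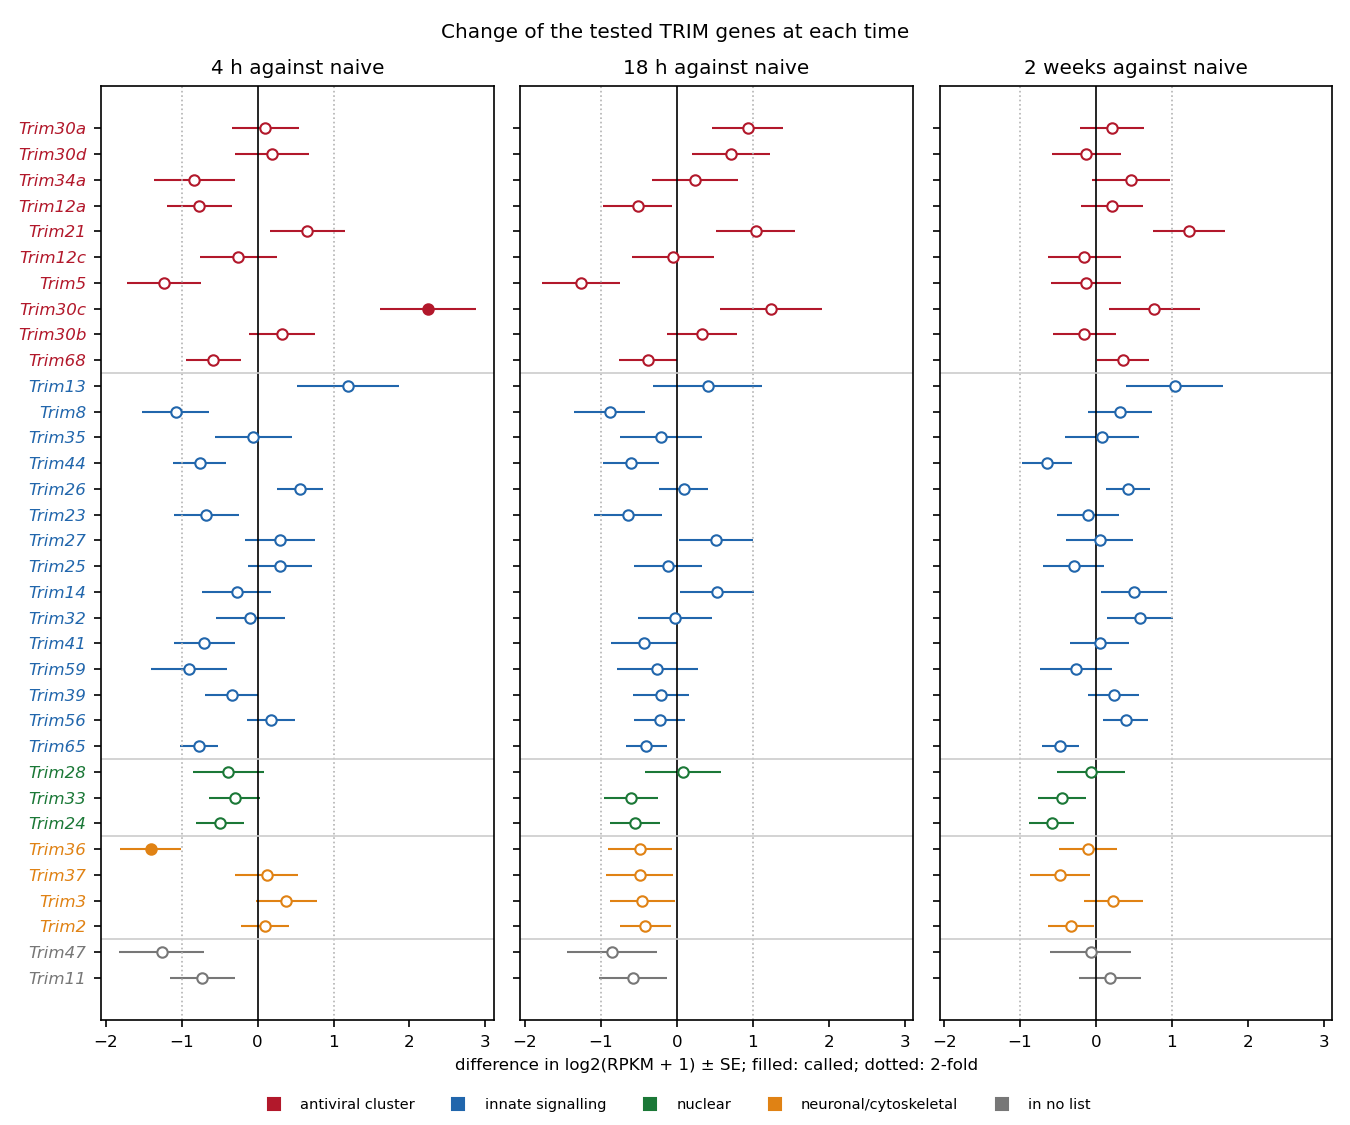
Difference of each tested TRIM gene from naive retinas at each time after LPS (4 h, 18 h, then 2 weeks), in log2(RPKM + 1), with bars for the SE and filled points for called genes. The only filled points are Trim30c (2.24) and Trim36 (-1.41), both at 4 h.

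No tested member was called at 18 h or at 2 weeks. At 18 h, 0 of 34 members were called by limma, against 4.69% of all genes, and 1 member had an unadjusted p under 0.05, as did 17.5% of all genes. That member was Trim5, whose name in mouse is shared with the retroviral restriction factor of primates, and it was chosen here after its values were seen. Its 18 h values ran from 0.215 to 2.18 RPKM, all 5 below the naive median of 6.04, and the difference was -1.26 ± 0.51 (adjusted p = 0.175 by limma). Trim30a had 16.0, 23.7, 31.8, 39.1 and 59.0 RPKM at 18 h, all above its naive median, and 1 of the 5, the retina of experiment 2, above every naive retina. Its difference was 0.93 ± 0.47 (adjusted p = 0.296 by limma). Trim30d ranged from 8.06 to 25.2 RPKM at 18 h, and 4 of 5 retinas lay above its naive median. Between 18 h and 4 h no member was called by limma and none had an unadjusted p under 0.05, against 5.42% of all genes called and 16.3% at an unadjusted p under 0.05. The 6 lymphocyte markers summed to 6.78 to 96.4 RPKM at 18 h and to at most 0.907 RPKM in the other groups, mainly through Nkg7. Of these markers Nkg7 reached 1 RPKM in 5 retinas, Cd3d and Cd8a in 1 each, and Cd3e, Cd79a and Ms4a1 in none. The 6 monocyte markers summed to 0.0322 to 32.5 RPKM at 18 h with a median of 8.62, and to 0.0988 to 3.02 RPKM in naive retinas with a median of 0.268. Plac8 reached 1 RPKM in 12 of 28 retinas, Ly6c2 in 2, Ccr2 and Chil3 in 1 each, and Vcan and F10 in none. The part of these markers' cells in the 18 h values of TRIM genes was not tested.

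At 2 weeks, 0 of 34 members were called by limma, and 1 had an unadjusted p under 0.05, beside 0.0076% of all genes called and 2.87% at an unadjusted p under 0.05. Trim21, a cytosolic receptor for antibody, was that member and was likewise chosen after its values were seen. Its level was 3.44 to 10.5 RPKM with a median of 5.90, above the naive median of 2.67 in 7 of 7 retinas. The difference was 1.22 ± 0.47, with an adjusted p of 1 by limma. Trim30a and Trim30d had 2-week medians of 16.7 and 9.10 RPKM and differed from naive by 0.21 and -0.13. The median difference of all 34 members was 0.05, and that of all genes was 0.07.

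Most antiviral genes differed from naive retinas in opposite directions at 4 h in the 2 experiments. In experiment 1, 7 of the 10 tested were higher than in naive retinas, with a median difference of 1.18. In experiment 2, 0 of 10 were higher and the median difference was -1.12. Of all 13164 genes tested, 6258 were higher in experiment 1 and 4223 in experiment 2, with medians of -0.05 and -0.26. Of the 10, 7 were higher in experiment 1 and lower in experiment 2, which held for 24.7% of all genes. Among the other 24 tested TRIM genes, 7 had these signs.

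The values of single retinas show the split. Trim30a had 13.7, 46.5 and 64.6 RPKM at 4 h in experiment 1 and 7.26, 13.1 and 5.13 RPKM in experiment 2. Trim30d had 18.4, 34.8 and 48.7 RPKM in experiment 1 and 4.11, 4.26 and 2.43 RPKM in experiment 2. Trim34a had 4.80, 7.95 and 11.9 RPKM against 4.23, 0.666 and 1.24 RPKM. For Trim30a, Trim30b, Trim30c, Trim30d, Trim12c and Trim34a every 4 h retina of experiment 1 was above every 4 h retina of experiment 2, that is for 6 of 10 antiviral genes, 8 of 34 tested members and 5.14% of all genes. Of these 6, Trim30a, Trim30d, Trim12c and Trim34a carry the ISRE core printed above, and Trim30b and Trim30c do not. The core is also carried by Trim5, Trim12a and Trim21, which were not separated. A link between the core and the split was not tested. For each of these 6 genes the exact permutation test of the 3 against 3 retinas gave a two-sided p of 0.1, the smallest that it allows. Genes listed for full separation must give this value, so it adds nothing to the listing. Trim68, a ligase known as a cofactor of the androgen receptor, was the 1 gene of the antiviral list separated in the other direction. Every 4 h retina of experiment 1 was below every 4 h retina of experiment 2, as for 12.4% of all genes. A list name need not describe each member.

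Naive retinas also differed between the experiments, in spread and in the median of some members. Trim30a had 6.34 to 40.1 RPKM in the 6 naive retinas of experiment 1 and 14.4 to 25.1 RPKM in the 4 of experiment 2. Trim30d had 1.46 to 19.1 RPKM and 7.57 to 13.6 RPKM. For both genes the range of experiment 2 lay inside that of experiment 1. Some other antiviral genes had naive medians further apart, with overlapping ranges. Trim12c had a naive median of 0.506 RPKM in experiment 1 and 3.96 RPKM in experiment 2, and Trim21 had 0.349 and 3.92 RPKM. The part of these naive levels in the 4 h differences was not tested. The spread was wider in experiment 1, and the median SE of a TRIM gene's 4 h difference, fitted in each experiment separately, was 0.68 in experiment 1 and 0.271 in experiment 2.

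**Figure D3:**
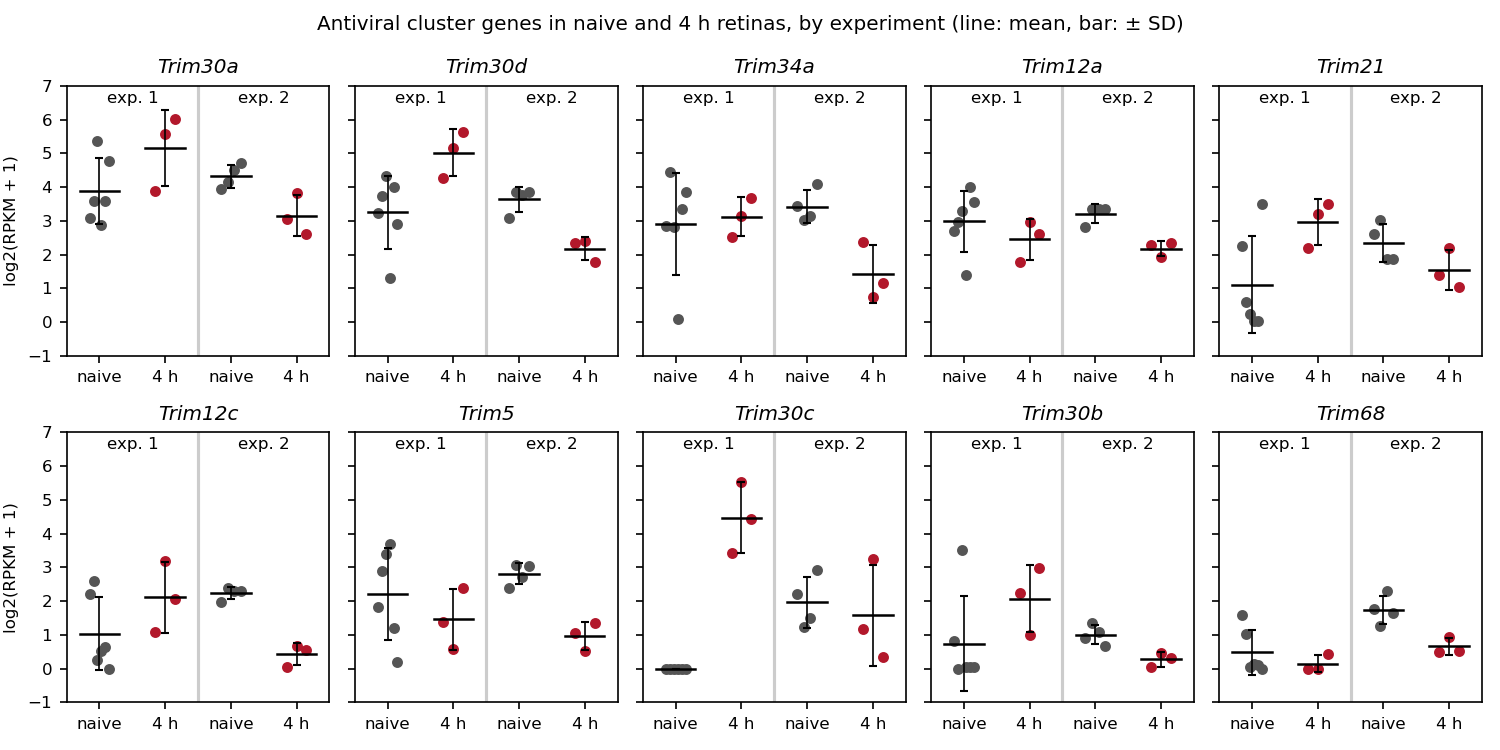
Levels of the 10 tested antiviral genes in naive retinas (grey) and 4 h retinas (red) of experiments 1 and 2, as log2(RPKM + 1), 1 point per retina, with lines for the mean and bars for the SD. Trim30d at 4 h lies between 18.4 and 48.7 RPKM in experiment 1 and between 2.43 and 4.26 RPKM in experiment 2.

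The difference between the experiments was tested directly as an interaction, the 4 h change in experiment 2 minus that in experiment 1. Of the 34 members, 1 was called, against 0.0988% of all genes. This was Trim30c, with -4.84 ± 0.98 on the log2 scale (adjusted p = 0.0366 by limma). Because its 6 naive retinas in experiment 1 were all listed at 0, no fold is given for experiment 1, and the size of the interaction depends on the pseudocount of 1 RPKM. In 18 of the 28 fits that left out 1 retina the adjusted p was above 0.05, up to 0.218 by limma, and these were the fits without any 1 of the 10 naive retinas, without 4 of the 6 retinas at 4 h (all but retinas 1 and 5) and without the last 4 retinas at 2 weeks. Trim30d came next with -3.24 ± 0.74 (adjusted p = 0.0898 by limma), followed by Trim12c with -2.89, Trim21 with -2.65 and Trim30a with -2.45. All 10 antiviral genes had an interaction below 0, as did 7911 of the 13164 genes tested. The median was -2.34 for the antiviral genes and -0.19 for all genes. In all, 7 members, every one of them from the antiviral list, had an unadjusted p under 0.05 by limma, as did 4.71% of all genes.

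Fits of each experiment alone gave different calls. With experiment 1 alone, Trim30c rose and no member fell, against 2.29% and 1.19% of all genes. With experiment 2 alone, 0 of 34 members rose and 9 fell, against 3.43% and 8.41% of all genes. The 9 comprised 7 antiviral genes, namely Trim5 (-1.85), Trim12a (-1.04), Trim12c (-1.82), Trim30a (-1.17), Trim30d (-1.47), Trim34a (-2.0) and Trim68 (-1.08), together with Trim14 (-1.23), an adaptor of RNA sensing, and Trim36. Every 4 h retina lay below every naive retina of experiment 2 for 8 of the 10 antiviral genes, and for 24.2% of all genes. Where the 2 experiments shared a common estimate of spread, 0 of 34 members were called by limma in experiment 2, against 1.66% of all genes, and 7 members had an unadjusted p under 0.05, all of them lower, as did 9.92% of all genes in either direction. In that fit Trim30c and Trim30d were called higher in experiment 1, with 3.94% of all genes.

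**Figure D4:**
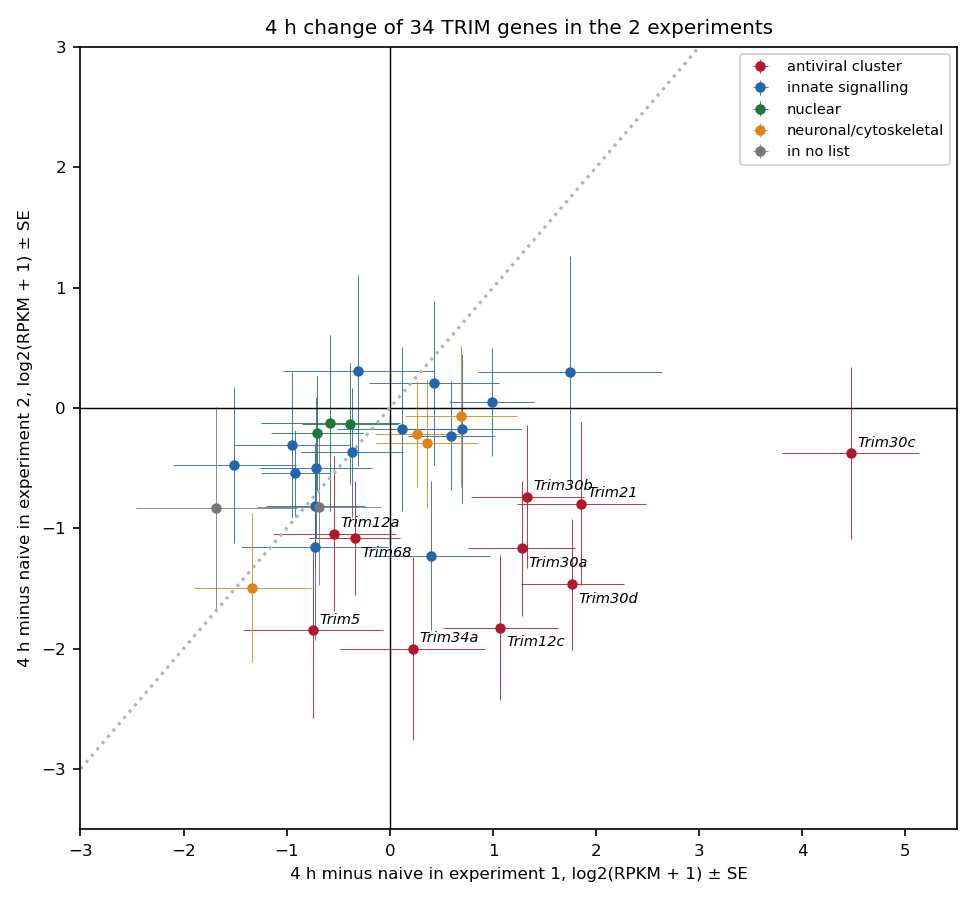
Difference between 4 h and naive retinas of each of the 34 tested TRIM genes in experiment 1 (horizontal) and experiment 2 (vertical), in log2(RPKM + 1) with bars for the SE from the fit that shares the spread, coloured by role. The antiviral genes lie below 0 on the vertical axis, 7 of 10 of them to the right of 0, and the dotted line marks an equal change in both experiments.

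Other measures also moved with the experiment. At 4 h the summed level of 6 rod markers was 762 to 2131 RPKM in experiment 1 and 2627 to 3662 RPKM in experiment 2, and that of 10 microglial markers was 2274 to 7243 and 4614 to 8548 RPKM. In naive retinas of experiment 2 the rod sum was 2055 to 3579 RPKM, overlapping its 4 h range, and the microglial sum was 10290 to 11870 RPKM, above its 4 h range. In naive retinas of experiment 1 the rod sum was 614 to 2927 RPKM and the microglial sum 6559 to 14620 RPKM. The 6 Müller glia markers summed at 4 h to 904 to 1152 RPKM in experiment 1 and 1373 to 2385 RPKM in experiment 2, without overlap. That sum was mainly Apoe, whose median over the 28 retinas was 1556 RPKM beside 1668 RPKM for the sum. Glul had a median of 78.5 RPKM, and Slc1a3, Rlbp1, Dkk3 and Aqp4 had 9.51 RPKM or less. The separation is that of a sum ruled by Apoe, and the 4 h levels of the single markers were not compared between the experiments. The 5 erythrocyte markers summed to 13.9 to 25.4 RPKM at 4 h in experiment 1 and 29.4 to 735 RPKM in experiment 2. The part of these differences in the values of the antiviral TRIM genes was not tested. Of the 7 neutrophil markers listed, Ly6g, Mpo and Ngp stayed under 1 RPKM in all 28 retinas, whereas Csf3r reached 1 RPKM in 27 retinas (highest 83.0 RPKM), S100a8 and S100a9 in 2 each and Camp in 1. The neutrophil sum was mainly Csf3r, whose median over the 28 retinas was 11.9 RPKM beside 12.8 RPKM for the sum. At 4 h the sum was 0.293 to 36.8 RPKM in experiment 1 and 7.92 to 17.1 RPKM in experiment 2. In naive retinas it was 5.60 to 83.0 RPKM in experiment 1 and 16.6 to 21.1 RPKM in experiment 2.

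Similar copies were examined because reads may have been divided between them. Of 75-base windows along their transcripts, Trim34a shared 29.53% with other genes, which was Trim34b alone, Trim5 shared 20.57%, Trim12c 16.91%, Trim30d 5.4%, Trim12a 5.25%, Trim30a 4.98% and Trim30c 0%. The summed level of Trim30a, Trim30b, Trim30c and Trim30d was 45.6, 128 and 141 RPKM at 4 h in experiment 1 and 8.05, 12.7 and 26.3 RPKM in experiment 2. It ranged from 7.83 to 69.8 RPKM in naive retinas and from 28.1 to 90.4 RPKM at 18 h. Because the 4 transcripts differ in length, this sum still depends in part on how reads were divided, and the part of that division in the single values was not tested.

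The innate regulators varied without a called change. None of the 15 tested was called at any time by limma in the fit of both experiments, with medians of -0.28 at 4 h, -0.21 at 18 h and 0.08 at 2 weeks. At 4 h, 3 of the 15 had an unadjusted p under 0.05, a share near the 20.5% of all genes. Trim65, an activator of the RNA sensor encoded by Ifih1, differed by -0.77 ± 0.25 (adjusted p = 0.0531 by limma). It had 1 RPKM or more in only 5 retinas, 4 of them naive, so that it passed the filter mainly through the group in which it was high and its difference supports nothing. Its 4 h values of 0 to 0.326 RPKM were all below the naive median of 0.667 RPKM. Trim35 had naive and 4 h medians of 5.67 and 6.06 RPKM. Trim44, which lacks a RING domain, had a naive median of 6.98 RPKM and a 4 h median of 3.57 RPKM, with 4 of 6 retinas below every naive retina, and differed by -0.76 (adjusted p = 0.203 by limma). Trim26 lay above its naive median of 4.42 RPKM in all 6 retinas at 4 h and differed by 0.56 (adjusted p = 0.302 by limma). Trim25, the ligase known to activate the RNA sensor RIG-I, had 3.11 RPKM in naive retinas and 3.94 RPKM at 4 h, as medians. Trim14 had 4 h values of 0.126 to 3.32 RPKM.

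Among the nuclear and neuronal members only Trim36 was called. Trim28, the co-repressor of KRAB zinc finger proteins, had a naive median of 6.71 RPKM and medians of 4.74 RPKM at 4 h, 7.19 RPKM at 18 h and 6.42 RPKM at 2 weeks. Trim33, a regulator of TGF-beta signalling, and Trim24, a nuclear receptor cofactor, had naive medians of 2.03 and 0.985 RPKM. The 3 differed from naive at 4 h by -0.38, -0.30 and -0.50, and none was called. Trim24 passed the filter only with the naive group, so its lower level at 4 h supports nothing. The neuronal ligases Trim2 and Trim3 had naive medians of 2.10 and 1.68 RPKM, and Trim37, a ligase of peroxisomes and centrosomes, had 2.33 RPKM. Their 4 h differences of 0.10, 0.38 and 0.12 were smaller than their SE of 0.32, 0.40 and 0.41. Of the 6 members in no list 2 were tested, and of these Trim47 had 0 to 1.68 RPKM at 4 h, below its naive median of 3.46 in all 6 retinas, and differed by -1.27 ± 0.56 (adjusted p = 0.185 by limma). Trim47 overlaps Trim65 by 5365 bases on the same strand. Trim11 differed by -0.73.

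Of the 4 family members whose genes have another symbol, Pml, Mefv, Mid1 and Mid2, only Pml was tested. Pml, the organiser of nuclear bodies, had a naive median of 0.609 RPKM and medians of 0.638 at 4 h and 2.31 at 18 h, a difference of 0.70 at 18 h that was not called (adjusted p = 0.344 by limma). Mefv, which encodes pyrin, was listed at 0 in all 10 naive retinas and reached 1 RPKM in 2 of the 6 retinas at 4 h, with a highest value of 7.68 RPKM.

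Genes of the sensing and interferon axis, in which many TRIM ligases act, included larger changes at 4 h and 18 h than any TRIM gene. Of 20 tested, 3 rose and 1 fell at 4 h, 2 rose at 18 h and 0 were called at 2 weeks by limma, where none had an unadjusted p under 0.05. Over all genes 8.08%, 4.69% and 0.0076% were called at these times. Ifnb1, which encodes interferon beta, rose by 5.64, Ifih1 by 2.99 and Ikbke, a kinase of interferon induction, by 1.52, and Tlr4, the LPS receptor, fell by 2.15 on the log2 scale. At 18 h Irf7, a factor that amplifies interferon induction, rose by 3.05 and Ikbke rose as well (adjusted p = 0.0111 by limma). Of 12 genes of ubiquitin and ISG15 conjugation, 1 rose at 4 h and the same gene at 18 h, namely Isg15, by 4.88 and 3.55, and 0 were called at 2 weeks, where 1 had an unadjusted p under 0.05. A single gene of 12 is near the share of all genes called at 4 h. Ifnb1, Ifih1 and Isg15 were called in each experiment alone at 4 h. In experiments 1 and 2 they rose by 3.72 and 7.61 (Ifnb1), 3.21 and 2.87 (Ifih1), and 5.89 and 3.85 (Isg15). Usp18, the protease that removes ISG15, rose by 4.69 with experiment 1 alone. With experiment 2 alone Usp18 differed by -0.16 and was not called. The median 4 h difference of the 20 axis genes was 0.99 in experiment 1 and 0.004 in experiment 2, and that of the 12 conjugation genes 0.92 and -0.04, beside 1.18 and -1.12 for the antiviral TRIM genes.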

How the data were processed

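Libraries of sorted microglia were made with the SMART-Seq v4 kit. The deposited values were RPKM per gene and retina: the authors trimmed the reads, aligned them to mm10 with STAR 2.5.3a, divided them among transcripts by expectation maximisation in Partek and scaled them, after bcl2fastq 2.20. This method can divide a read between similar genes. The deposited tables of changed genes, which hold p-values, ratios and fold changes of the authors' own comparisons, were not used. Alignments per retina are known but reads per gene are not, so no counting interval is given.

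Values were analysed as log2(RPKM + 1) after keeping the 13164 genes with at least 1 RPKM in at least 5 of 28 retinas. limma 3.58.1 in R 4.3.3 fitted all retinas in 1 model of the 4 groups, with the prior variance following the mean level, and Benjamini-Hochberg adjustment ran over all genes tested. The interaction came from a model of the group and experiment cells with 20 residual degrees of freedom. The 4 h test and the interaction were tried on simulated data, with deviations from the group means shuffled over all 28 retinas. Only the 4 h test had a set limit to pass. The shuffling did not keep the unequal spread of the 2 experiments, so it does not show how the tests behave under that spread. No 2 retinas shared more than 2 identical values above 0. Coordinates are from GENCODE M21 on GRCm38 and promoters from RefSeq GRCm38.p6. Figures were drawn with Python 3.11.15.

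The members and gene lists were chosen with earlier results of these data known. Named in full are members called in any comparison and the 6 with the highest naive median, with up to 4 examples per list by highest median. Among the cell type markers, 3 genes are not reported here and were left out of the sums. Other named genes were chosen after their values were seen. Alternatives were other pseudocounts, filters and scalings, the experiment or replicate number in the model, each experiment alone, only the groups compared, and each retina left out.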

Additional observations from a re-analysis of the deposited data

Results flagged for a closer look

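In all, 3 values stood apart from the other naive retinas by Dixon's test, all in the fourth naive retina of experiment 1, which had the fewest genes at 1 RPKM or more (6552): Trim12a at 1.65 RPKM, Trim30d at 1.46 RPKM and Trim34a at 0.0740 RPKM were each the lowest of 10. At 18 h, Trim13 was lowest of 5 in the fourth retina at 0.0534 RPKM, where 6969 genes reached 1 RPKM. These 4 values came from 32 groups examined, of which chance marks about 1 in 20. Whether the low number of detected genes lowered these values was not tested. The 4 h change of Trim30c differed between the experiments, at -4.84 for experiment 2 minus experiment 1 on the log2(RPKM + 1) scale, by the interaction in limma.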

How the results depend on the processing

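The number of TRIM genes called was 2 at 4 h. It was 0 with a pseudocount of 10 RPKM, 1 without a filter, 1 with a filter at 5 RPKM, 1 with experiment 1 alone, 9 with experiment 2 alone, and 0 to 3 when 1 retina was left out, with 0 when the third 4 h retina was left out. The number that differed between the experiments was 1. It was 0 with a pseudocount of 0.1 RPKM, without a filter, with a filter at 5 RPKM and with the replicate block, 2 with a pseudocount of 10 RPKM, 2 without the 4 retinas that had under 8000 genes at 1 RPKM (an alternative chosen after seeing the data), and 0 to 2 when 1 retina was left out. The counts of 0 at 18 h and at 2 weeks were the same in every alternative run, and that of 18 h against 4 h was 0 in all but experiment 2 alone, where it was 7 with 1 retina at 18 h. The 4 called axis genes at 4 h became 2 with a pseudocount of 10 RPKM, and the 2 at 18 h became 1 with a pseudocount of 10 RPKM and with a filter at 5 RPKM. The 1 called conjugation gene at 4 h became 2 with pseudocounts of 0.1 and 10 RPKM, with a filter at 5 RPKM and with both scalings, and that at 18 h became 2 with a pseudocount of 10 RPKM, a filter at 5 RPKM and quantile normalisation. The cause of these moves was not tested.

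With experiment 2 alone, the sign turned for Trim30a (-1.17), Trim30c (-0.37) and Trim30d (-1.47), and with experiment 1 alone for Trim34a (0.22). Rescaling turned Trim30a (-0.16) and Trim30d (-0.0524), and it shifted the all-gene median difference at 4 h from -0.11 to -0.28. Leaving out 1 retina gave 4 h differences from -0.27 to 0.41 for Trim30a and from -0.22 to 0.55 for Trim30d. Retinas of different groups with the same number correlated between -0.329 and 0.698 over 34 pairs, with a median of 0.0352 and 15 above 0.1. Those with other numbers correlated between -0.552 and 0.689 over 253 pairs, with a median of 0.00539 and 93 above 0.1. Of 28 retinas, 7 correlated best with their own number. The numbers were not taken as pairs, but these values do not settle whether they are. With the replicate block 2 genes were called at 4 h, Trim30c and Trim8, and Trim36 had an adjusted p of 0.0553 by limma. Depth limits genes under 1 RPKM, whose values are estimates from few reads.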
